A study of Mus musculus with 18 samples.

Results

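Wnt ligands, the Frizzled receptors that bind them and 2 families of secreted antagonists were followed in mouse embryoid bodies exposed to thalidomide. The set held every measured gene with a Wnt, Fzd, Sfrp or Dkk family symbol, which gave 37 of 22180 genes: 19 Wnt ligands, 10 Frizzled receptors, 4 secreted frizzled-related proteins and 4 Dickkopf proteins. Each gene was represented by its brightest probe set, and among the 37 only Sfrp2 had more than 1 probe set, with 2.

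Mouse embryonic stem cells of the C57BL/6 strain were differentiated as embryoid bodies, small spheres grown in suspension, inside which the cells begin to form mesoderm, endoderm and ectoderm. From day 3 of the embryoid body stage they received 0.25 mM thalidomide, a human teratogen that binds the ubiquitin ligase subunit cereblon, or the 0.25% DMSO vehicle, for 24, 48 or 72 h. The 18 arrays formed 6 groups of 3 biological replicates: control at 24, 48 and 72 h, and thalidomide at the same 3 times. The series text calls the controls unexposed, and their sources are dated by hours since the embryoid bodies formed, so the labels do not settle whether control and exposed cultures were of exactly the same age. Before differentiation, the stem cells of all groups had been kept in a medium with leukemia inhibitory factor, BMP-4 and an inhibitor of GSK3b. That inhibitor itself switches on Wnt signalling through beta-catenin, and the labels do not describe the medium of the embryoid bodies.

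Wnt proteins are secreted lipid-modified signals. In the canonical pathway they bind a Frizzled receptor together with the co-receptors Lrp5 or Lrp6, which stops the destruction complex of Axin, Apc and Gsk3b from degrading beta-catenin, so that beta-catenin enters the nucleus and works with TCF and LEF factors. Other Wnt proteins, Wnt5a and Wnt11 among them, act mainly through planar polarity and calcium routes. Secreted frizzled-related proteins bind Wnt ligands outside the cell, and Dkk1, Dkk2 and Dkk4 bind Lrp5 and Lrp6. In the mouse embryo, Wnt3 is needed to form the primitive streak, the site where mesoderm and endoderm arise, and later steps of heart formation need Wnt signalling to be held down.

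All values are log2 signals as deposited, so a difference of 1 is a 2-fold change, and the signal of a probe set depends on its sequence as well as on the transcript. Differences were tested with limma, a linear model fitted to all genes together; changes carry their standard error (± SE), group means their SD (n = 3), and a gene was called changed at a Benjamini-Hochberg adjusted p under 0.05 over 22180 genes. Array medians ran from 5.367 to 5.462, and replicates of a group correlated across genes at 0.992 to 0.996. By array signal, which is no measure of abundance between genes, 11 members had a mean below 5.77, the median of all genes, 3 lay below 4.54 and 6 above 7.37, the bounds of the lower and upper quartiles. A tag in the array titles marks a re-analysis; all 9 controls have it, as do the exposed arrays of 24 h, but it is missing from the 6 later exposed arrays. At 48 and 72 h the tag and the exposure therefore cannot be told apart.

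Marker lists showed the cultures leaving the primitive streak state. The mean log2 signal of 7 primitive streak and nascent mesoderm genes ran from 8.25 to 8.30 on the control arrays of 24 h, from 6.69 to 6.99 at 48 h and from 5.78 to 5.93 at 72 h, and 7 of 7 fell between 24 h and 72 h. Of 8 pluripotency genes 5 fell and 1 rose between these times. Nanog fell from 9.13 ± 0.21 to 4.82 ± 0.33, so by 72 h this marker of the labelled stem cell type was below its earlier level. Sox2, shared with neural cells, rose by 1.03. Esrrb and Dppa5a were already below the gene median of 5.77 at 24 h (4.92 and 4.95) and read 4.83 and 4.95 at 72 h. Over the same interval 7 of 8 cardiac, 6 of 6 endothelial and 7 of 8 mesenchymal markers rose. In bulk RNA, fewer cells of a type and less RNA per cell cannot be told apart.

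Over this control course the members changed often. From 24 h to 72 h, 18 of 37 members (48.6%) were called, 8 up and 10 down, against 27.5% of all genes (13.1% up and 14.3% down). A change of at least 1 log2 unit was called for 6 members, against 2.57% of all genes. The ligand and receptor families went different ways: 8 of 19 Wnt genes fell and 2 rose, whereas 6 of 10 Frizzled genes rose and 1 fell. The median change was -0.15 for the Wnt genes and 0.36 for the Frizzled genes, beside -0.04 for all genes. None of the 4 Sfrp genes was called by limma (1 had an unadjusted p under 0.05) and 1 of 4 Dkk genes fell.

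**Figure D1:**
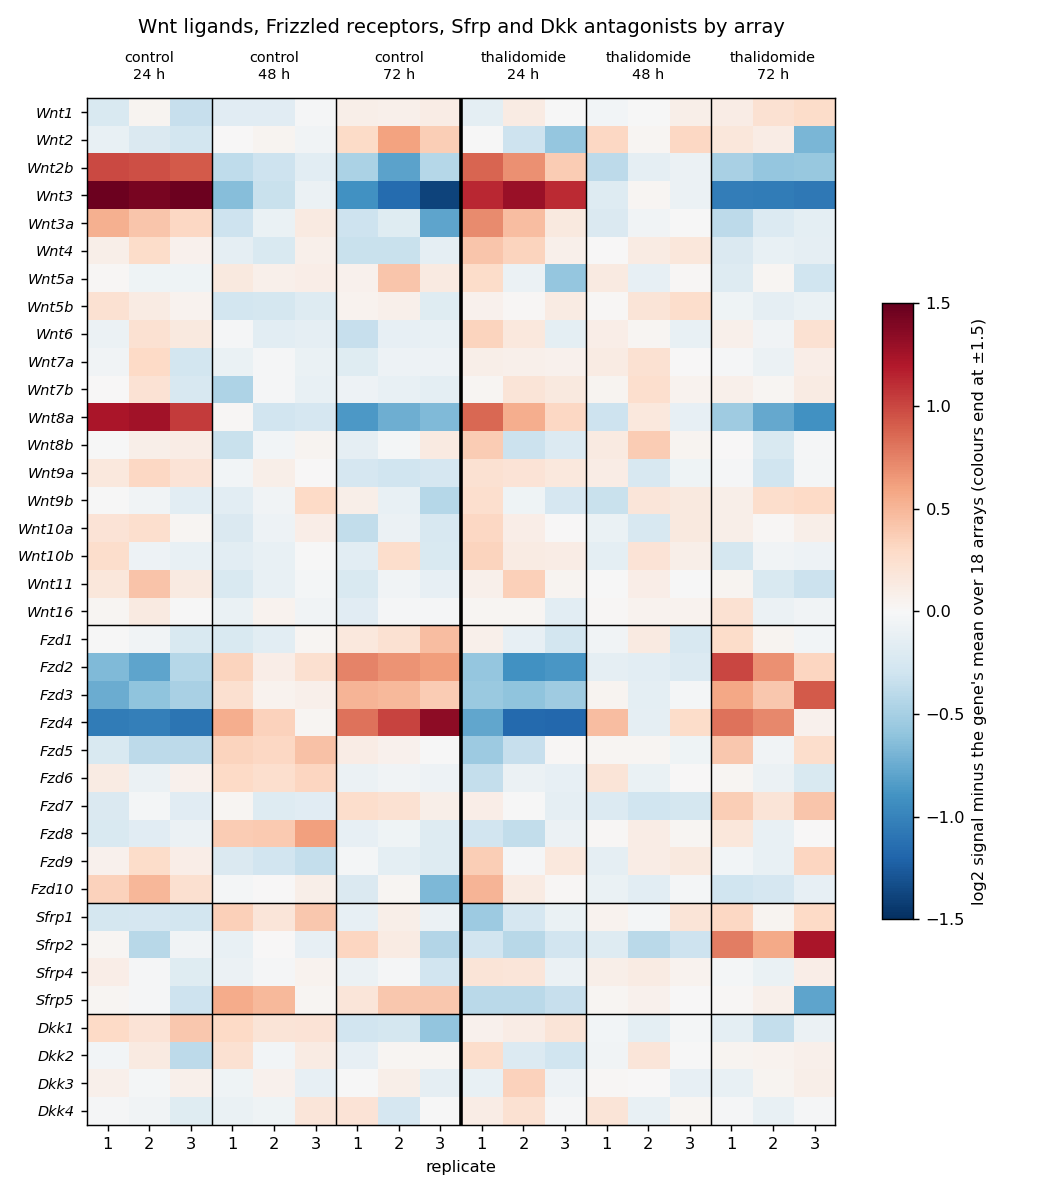
Log2 signal of the 37 members on the 18 arrays, each gene shown relative to its own mean over the arrays; columns are replicates within control and thalidomide groups at 24, 48 and 72 h, and rows are ordered as Wnt, Fzd, Sfrp and Dkk. Wnt3, Wnt8a and Wnt2b are high in both 24 h groups, and Fzd4, Fzd2 and Fzd3 are high in both 72 h groups, except that Fzd4 is near its mean on exposed 72 h replicate 3.

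Promoters of 5 members with called changes are shown to give the DNA just upstream of each start. Sequences are from RefSeq, assembly GRCm38.p6, 250 bases before the start of a transcript, 5′ to 3′ on the strand of the gene. Wnt3 (chr11:103773925-103774174, plus strand) and Wnt2b (chr3:104961710-104961959, minus strand) fell over the control course, Fzd4 (chr7:89404116-89404365, plus strand) rose, and Dkk1 (chr19:30549497-30549746, minus strand) fell. Wnt5b (chr6:119449387-119449636, minus strand, 1 of 3 windows) was higher under thalidomide at 48 h. Capitals mark the core of the TCF and LEF binding motif, CTTTGA on the gene's strand or TCAAAG for the other strand.
Wnt3: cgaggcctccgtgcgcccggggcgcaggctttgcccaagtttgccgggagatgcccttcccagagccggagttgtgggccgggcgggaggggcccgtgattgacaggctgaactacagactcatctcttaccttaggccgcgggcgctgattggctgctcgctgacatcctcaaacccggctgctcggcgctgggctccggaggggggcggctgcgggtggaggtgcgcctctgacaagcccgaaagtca
Wnt2b: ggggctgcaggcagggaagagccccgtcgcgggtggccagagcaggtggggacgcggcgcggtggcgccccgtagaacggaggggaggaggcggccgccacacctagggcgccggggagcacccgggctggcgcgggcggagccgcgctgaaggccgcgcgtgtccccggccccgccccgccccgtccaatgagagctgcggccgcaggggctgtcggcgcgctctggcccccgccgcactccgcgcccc
Fzd4: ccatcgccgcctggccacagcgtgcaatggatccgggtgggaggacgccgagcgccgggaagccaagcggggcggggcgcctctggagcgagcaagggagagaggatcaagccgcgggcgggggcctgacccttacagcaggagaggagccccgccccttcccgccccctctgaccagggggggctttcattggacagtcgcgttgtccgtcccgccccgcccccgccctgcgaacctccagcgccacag
Dkk1: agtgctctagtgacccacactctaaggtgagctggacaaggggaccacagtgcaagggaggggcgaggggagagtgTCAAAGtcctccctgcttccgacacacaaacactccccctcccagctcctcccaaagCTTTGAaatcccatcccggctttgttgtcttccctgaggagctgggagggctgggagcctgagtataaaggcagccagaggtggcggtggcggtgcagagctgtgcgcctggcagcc
Wnt5b: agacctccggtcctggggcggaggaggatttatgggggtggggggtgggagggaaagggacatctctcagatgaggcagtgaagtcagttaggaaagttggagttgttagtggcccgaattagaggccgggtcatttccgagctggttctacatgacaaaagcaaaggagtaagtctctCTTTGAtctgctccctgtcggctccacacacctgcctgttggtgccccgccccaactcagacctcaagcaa

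The table of promoters held 28 windows for 25 of the 37 members, and none for Wnt5a, Wnt7b, Wnt8a, Wnt10a, Fzd2, Fzd3, Fzd6, Fzd8, Sfrp1, Sfrp4, Dkk3 and Dkk4. The TCF and LEF core was found in 4 of the 28 windows (14.3%), which belong to Dkk1, Fzd1, Wnt11 and Wnt5b, against 13.8% of 32851 promoter windows of the same length. The Dkk1 window alone among the 4 held a match on each strand. The short site of T-box factors, GGTGTGA or TCACACC on the other strand, was in 0 of 28 windows and in 3.33% of all windows. The member windows were rich in G and C, with a median of 69.4% against 52.4% for all windows, and held a median of 22 CG dinucleotides (4 to 48) against 6.

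Among the ligands, Wnt3 had the largest fall. The control arrays gave 8.13, 8.09 and 8.14 at 24 h, 6.03, 6.33 and 6.58 at 48 h, and 5.75, 5.51 and 5.28 at 72 h. No 2 times overlapped, and the change from 24 h to 72 h was -2.61 ± 0.12, a 6.09-fold decrease (adjusted p = 4.82e-10). Most of it came in the first interval (-1.80 ± 0.12 from 24 h to 48 h, then -0.80 ± 0.12, both called).

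Wnt8a, a ligand of the early streak and posterior mesoderm, followed the same order. Its control signals were 7.89, 7.93 and 7.72 at 24 h, 6.68, 6.38 and 6.42 at 48 h, and 5.81, 5.93 and 6.00 at 72 h, a change of -1.93 ± 0.14 (3.81-fold, adjusted p = 4.36e-08). Wnt2b, another canonical ligand, read 7.04, 7.02 and 6.97 at 24 h, 5.67, 5.74 and 5.89 at 48 h, and 5.58, 5.25 and 5.63 at 72 h, a change of -1.53 ± 0.12 (2.88-fold, adjusted p = 8.42e-08). For Wnt2b the fall lay between 24 h and 48 h (-1.24 ± 0.12), since the 48 h and 72 h arrays did not overlap but their difference of -0.28 was not called (adjusted p = 0.208).

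Wnt3a, which sustains posterior mesoderm in the embryo, changed by less. It gave 6.36, 6.24 and 6.14 at 24 h and 5.51, 5.65 and 5.04 at 72 h, a change of -0.85 ± 0.16 (1.80-fold, adjusted p = 0.000585). Wnt9a (-0.50), Wnt4 (-0.41), Wnt10a (-0.40) and Wnt11 (-0.38) also fell. The 2 ligands that rose were Wnt2 (0.62), a canonical ligand of mesodermal tissues, and Wnt1 (0.27). The remaining 9 ligands were not called, with changes between -0.29 for Wnt6 and 0.23 for Wnt5a. Wnt5b had a low point within the course: it fell by 0.38 ± 0.08 from 24 h to 48 h (adjusted p = 0.00385), and its later difference of 0.23 was not called.

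In this ligand group 4 calls rested on single arrays. The rise of Wnt1 was lost without any of 5 of the 6 control arrays concerned and stood at 0.19 without control 24 h replicate 3. The Wnt2 call was lost without control 24 h replicate 3 (0.58) or control 72 h replicate 2 (0.52). The calls of Wnt10a and Wnt11 were both lost without control 24 h replicate 2 (-0.35 and -0.28) or without control 72 h replicate 1 (-0.33 for each).

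**Figure D2:**
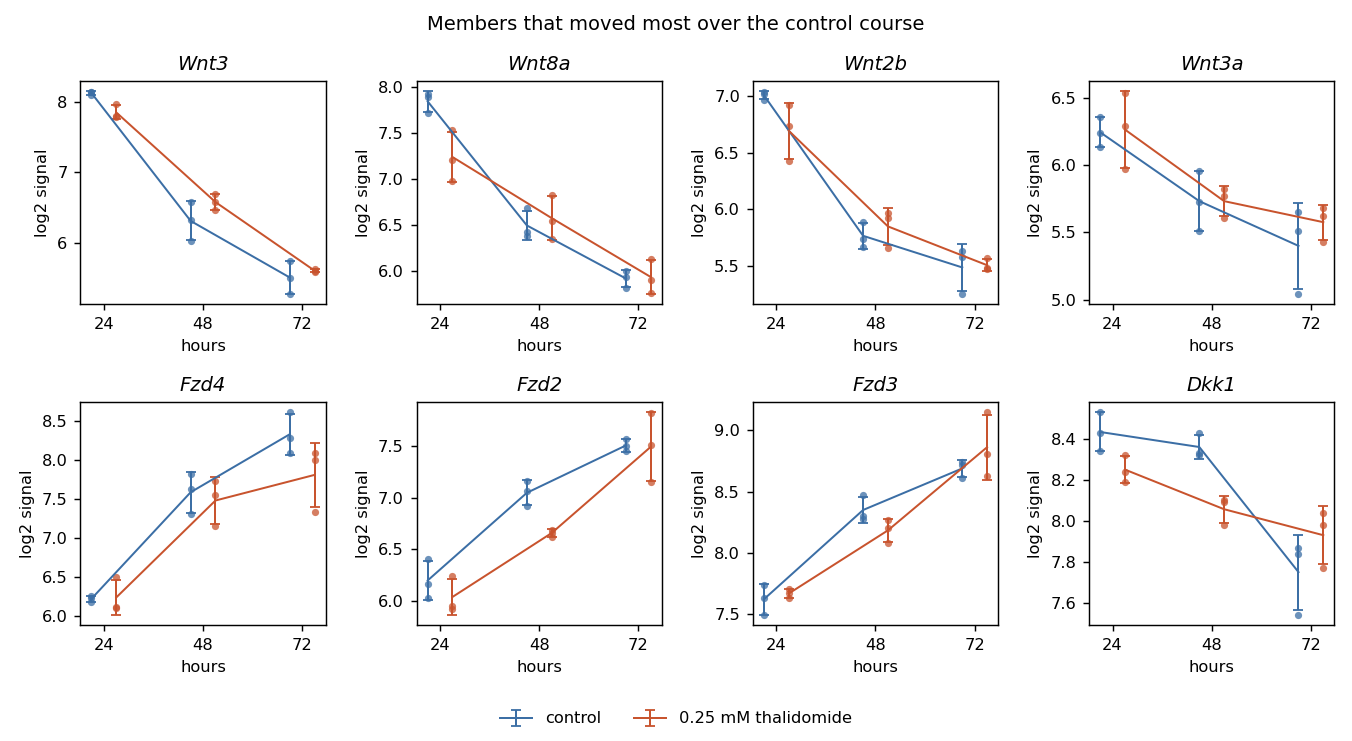
Log2 signal against hours for 8 members with the largest or most secure changes over the control course, in control (blue) and 0.25 mM thalidomide (orange); points are single arrays and lines join group means with SD bars (n = 3). Wnt3, Wnt8a and Wnt2b run down and Fzd4, Fzd2 and Fzd3 run up in both conditions.

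Of the receptors, Fzd4, which also serves as the receptor of the non-Wnt ligand norrin in blood vessels, rose most. Control signals were 6.23, 6.25 and 6.18 at 24 h, 7.83, 7.63 and 7.31 at 48 h, and 8.10, 8.29 and 8.62 at 72 h. The 3 times did not overlap; the change of 2.12 ± 0.20 was a 4.33-fold increase (adjusted p = 5.45e-07). The endothelial list mean was 5.47 to 5.54 at 24 h, 5.49 to 5.80 at 48 h and 7.40 to 7.68 at 72 h. From 24 h to 48 h, where the Fzd4 arrays had already separated, 0 of 6 endothelial markers were called. The cardiac list (5.53 to 5.83 at 24 h, 7.94 to 7.99 at 72 h) and the mesenchymal list (5.54 to 5.87, then 7.48 to 7.78) also rose. The part of these markers in the Fzd4 change was not tested.

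Fzd2 read 6.16, 6.03 and 6.40 at 24 h, 7.16, 6.92 and 7.06 at 48 h, and 7.57, 7.50 and 7.45 at 72 h, a rise of 1.31 ± 0.14 (2.49-fold, adjusted p = 1.6e-06). Fzd3, a receptor of the planar polarity route, went from 7.49, 7.63 and 7.74 through 8.47, 8.28 and 8.30 to 8.74, 8.72 and 8.61, a rise of 1.07 ± 0.11 (2.10-fold, adjusted p = 1.18e-06). Both rose mostly before 48 h (0.85 and 0.73), and neither later step was called. Fzd5 (0.39), Fzd1 (0.38) and Fzd7 (0.33) rose by less. Fzd10 was the receptor that fell (-0.65 ± 0.14, adjusted p = 0.00262), with signals of 4.05 to 5.22 on the control arrays.

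Fzd8 peaked in the middle of the course. Its control arrays read 7.02, 7.08 and 7.16 at 24 h, 7.63, 7.64 and 7.86 at 48 h, and 7.13, 7.18 and 7.05 at 72 h. The 48 h arrays lay above all others, with a rise of 0.62 ± 0.09 (adjusted p = 0.000151) followed by a change of -0.59 ± 0.09 (adjusted p = 0.000528). Fzd6 also fell from 48 h to 72 h (-0.36), and Fzd9 fell from 24 h to 48 h (-0.44). The Fzd1 rise was lost without control 24 h replicate 3 (0.32) or control 72 h replicate 3 (0.29), and the Fzd5 rise without any of control 24 h replicates 2 and 3 (0.36 each) and control 72 h replicates 1 (0.36) and 2 (0.39). The Fzd6 and Fzd9 steps were lost without 5 and 3 of the 6 arrays concerned, within ranges of -0.38 to -0.35 and -0.48 to -0.37.

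The antagonists moved less. Dkk1, which blocks Wnt signalling at Lrp5 and Lrp6 and is itself a target of the pathway, gave 8.43, 8.34 and 8.53 at 24 h, 8.43, 8.32 and 8.33 at 48 h, and 7.84, 7.87 and 7.54 at 72 h. Its first 2 times overlapped and all 72 h arrays lay below them, a change of -0.68 ± 0.09 over the course (1.60-fold, adjusted p = 2.91e-05) that came after 48 h (-0.61 ± 0.09). Sfrp1 read 8.86, 8.88 and 8.85 at 24 h and 9.49, 9.31 and 9.53 at 48 h, a rise of 0.58 ± 0.11 (adjusted p = 0.00144). By 72 h, at 9.0, 9.21 and 9.04, it was 0.22 above 24 h, which was not called. Sfrp2, Sfrp4, Sfrp5, Dkk2, Dkk3 and Dkk4 were called at no step of the control course.

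Step by step, 13 members were called between 24 h and 48 h (6 up and 7 down, against 13.6% of all genes, 6.93% up and 6.7% down) and 7 between 48 h and 72 h (2 up and 5 down, against 6.53%, 3.62% up and 2.9% down). In the first step 6 Wnt genes fell and 0 rose, while 5 Frizzled genes rose. The second count was 3 without control 48 h replicate 3 or without control 72 h replicate 2, and 4 without control 72 h replicate 1. Of the 18 calls over the whole course, 12 held under every alternative setting and left-out array that tested them, namely Wnt2b, Wnt3, Wnt3a, Wnt4, Wnt8a, Wnt9a, Fzd2, Fzd3, Fzd4, Fzd7, Fzd10 and Dkk1.

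Other genes of the pathway, from a list of 66 of which 63 were measured were followed over the same control course: 19 rose and 17 fell, together 57.1% of the list against 27.5% of all genes. In the feedback and target group, 7 of 10 fell and 0 rose. Axin2, the feedback inhibitor used as a general readout of canonical signalling, went from 8.10 ± 0.06 to 7.01 ± 0.25 (-1.08 ± 0.12, adjusted p = 3.35e-06). The TCF family member Lef1 (-1.52), the R-spondin Rspo3 (-1.55) and the Nodal antagonist Cer1 (-1.70) fell. Wls, the carrier that brings Wnt proteins to the cell surface, rose by 0.80, the R-spondin receptor Lgr4 by 0.68 and the secreted modulator Igfbp4 by 1.36. These non-member genes were named after their values were seen.

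Against this course, the members' differences between thalidomide and control were small. At 24 h, 1 of 37 members was called (down), against 6.86% of all genes, and 4 had an unadjusted p under 0.05, against 21.2%. At 48 h, 2 were called (1 up and 1 down), against 6.08%, and 10 had an unadjusted p under 0.05, against 23.3%. At 72 h, limma called 0 members, against 0.00902% of all genes, and 9 had an unadjusted p under 0.05, against 9.12%. At 24 h and 48 h the members were called no more often than genes at large, and no called difference reached 1 log2 unit. The share of members with an unadjusted p under 0.05 at 72 h was above that of all genes, though limma called 0 of them.

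**Figure D3:**
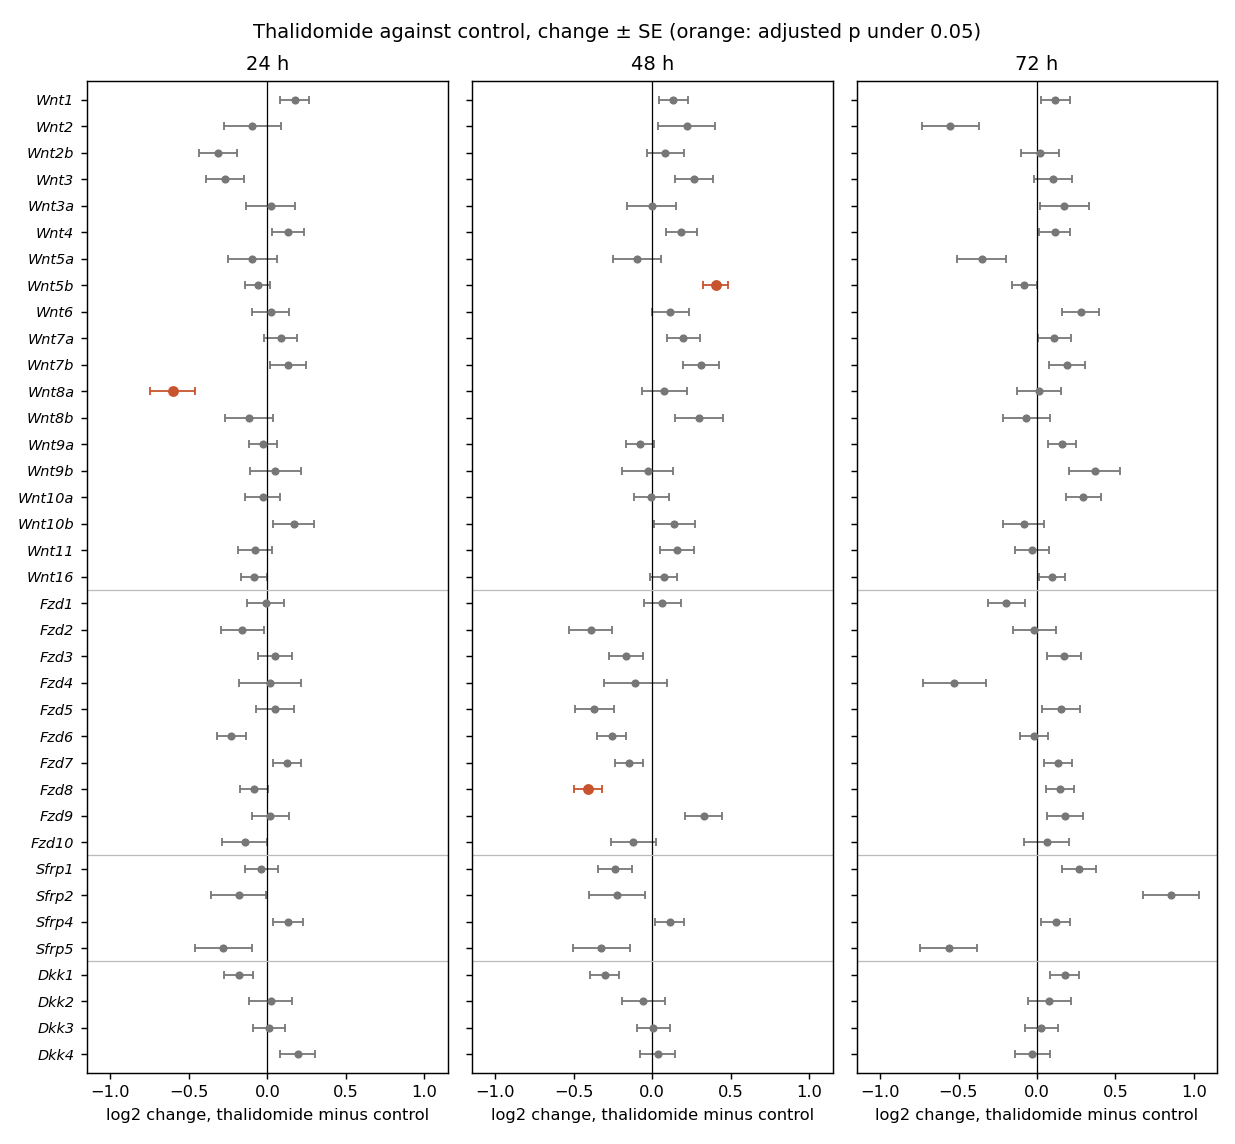
Log2 change, thalidomide minus control, for the 37 members at 24, 48 and 72 h, with SE bars; orange points have an adjusted p under 0.05. The coloured points are Wnt8a at 24 h and Wnt5b and Fzd8 at 48 h, and the widest departures at 72 h, Sfrp2 to the right and Sfrp5, Wnt2 and Fzd4 to the left, are not coloured.

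Wnt8a was the member called at 24 h. Control arrays gave 7.89, 7.93 and 7.72 and exposed arrays 7.53, 7.21 and 6.98. All exposed arrays lay below all controls, and the difference was -0.60 ± 0.14, 1.52-fold lower (adjusted p = 0.0188). It was no longer called when the 24 h groups were fitted alone (adjusted p = 0.0903), without control 24 h replicate 1 (-0.58, adjusted p = 0.0667) or 2 (-0.56, adjusted p = 0.0548), or without exposed 24 h replicate 3 (-0.47, adjusted p = 0.0727).

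The other ligands that fell by over 1 log2 unit in control, Wnt3 and Wnt2b, were not called at 24 h. Wnt3 read 7.80, 7.96 and 7.78 under thalidomide, below all controls (-0.27 ± 0.12, adjusted p = 0.207). Wnt2b read 6.92, 6.74 and 6.43, again below all controls (-0.32 ± 0.12, adjusted p = 0.133). Wnt3a differed by 0.02 (adjusted p = 0.965), with overlapping arrays. Differences at 24 h moved with signal over all genes: those at or above the median signal had a median of -0.06, and dimmer genes one of 0.05. The 13 Wnt genes among the brighter genes had a median of -0.06. In all, exposed arrays were below all control arrays for 6 members (Wnt2b, Wnt3, Wnt8a, Fzd6, Sfrp5 and Dkk1; 15.9% of all genes did so) and above them for 1, Dkk4 (9.23%).

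The streak markers were lower at 24 h in the same arrays. Their list mean was 7.87 to 7.99 under thalidomide against 8.25 to 8.30 in control, all 7 genes had a difference below 0 (median -0.36), 5 had every exposed array below every control, and 1 was called. The part of these markers and of signal level in the Wnt8a difference was not tested. By 48 h the lists overlapped (6.64 to 6.80 against 6.69 to 6.99), and the Wnt8a difference was 0.08 (adjusted p = 0.794).

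At 48 h the called ligand was Wnt5b, a close relative of Wnt5a. Control arrays read 5.73, 5.75 and 5.82 and exposed arrays 6.03, 6.20 and 6.28, with no overlap and a difference of 0.41 ± 0.08, 1.32-fold (adjusted p = 0.00866). The exposed arrays stayed near the 24 h level of both conditions (6.03 to 6.24), where the controls had fallen. The call held in 12 of 13 alternatives and was lost when the 48 h groups were fitted alone (adjusted p = 0.0604).

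The called receptor was Fzd8. Control arrays read 7.63, 7.64 and 7.86 at 48 h and exposed arrays 7.26, 7.36 and 7.28, all below the controls, a difference of -0.41 ± 0.09 or 1.33-fold (adjusted p = 0.0145). The exposed arrays thus lacked the height of the 48 h peak seen in control. The call was lost when the 48 h groups were fitted alone (adjusted p = 0.0612), without control 48 h replicate 3 (-0.34, adjusted p = 0.0695) and without exposed 48 h replicate 3 (-0.40, adjusted p = 0.0503).

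The other 9 Frizzled genes were not called at 48 h. The median difference of the 10 was -0.16 and 8 were below 0, whereas the 19 Wnt genes had a median of 0.13 with 14 above 0, beside a median of 0.005 for all genes. As at 24 h, differences at 48 h moved with signal: genes at or above the median signal had a median of -0.06 and dimmer genes one of 0.07. Of the Frizzled genes 9 belong to the brighter genes, with a median of -0.17 and 7 below 0, and of the Wnt genes 13, with a median of 0.08 and 8 above 0. Of all 11090 brighter genes, 7041 were below 0 and 4049 above. Markers of definitive endoderm were lower at 48 h in the same arrays: their list mean was 8.33 to 8.38 under thalidomide against 8.54 to 8.62 in control, 5 of 6 genes had a difference below 0 (median -0.27), and Cxcr4 (-0.42) and Cldn6 (-0.41) were called. The part of signal level and of these markers in the Frizzled differences was not tested. All exposed arrays lay below all controls for 7 of 10 Frizzled genes (Fzd2, Fzd3, Fzd5, Fzd6, Fzd7, Fzd8 and Fzd10), for Sfrp2 and for Dkk1, against 16.9% of all genes. They lay above all controls for Wnt5b, Wnt7a, Wnt7b, Wnt11, Fzd9 and Sfrp4, against 12.3%. Both shares cover all genes and were not split by signal.

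Several of these had values close to the threshold. Fzd5 read 7.82, 7.79 and 7.92 in control and 7.51, 7.51 and 7.42 in exposed arrays, a difference of -0.37 ± 0.12 (adjusted p = 0.0839), and Dkk1 read 8.43, 8.32 and 8.33 against 8.09, 7.98 and 8.10, a difference of -0.30 ± 0.09 (adjusted p = 0.0611). Both were called when only genes at or above the median signal were tested (adjusted p = 0.0389 and 0.0242) and when the variance was fitted with a trend and robustly (adjusted p = 0.0426 and 0.0215). Fzd2 (-0.39, adjusted p = 0.0958) and Fzd6 (-0.26, adjusted p = 0.0995) were called with the signal filter (adjusted p = 0.0468 and 0.0459) but not with the trend, and Fzd6 also without exposed 48 h replicate 1 (-0.34, adjusted p = 0.0449). Fzd9 (0.33, adjusted p = 0.105), above 0, was called under neither setting. Wnt7b (0.31, adjusted p = 0.114), also above 0, was not called with the trend and was too dim to be tested with the signal filter.

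**Figure D4:**
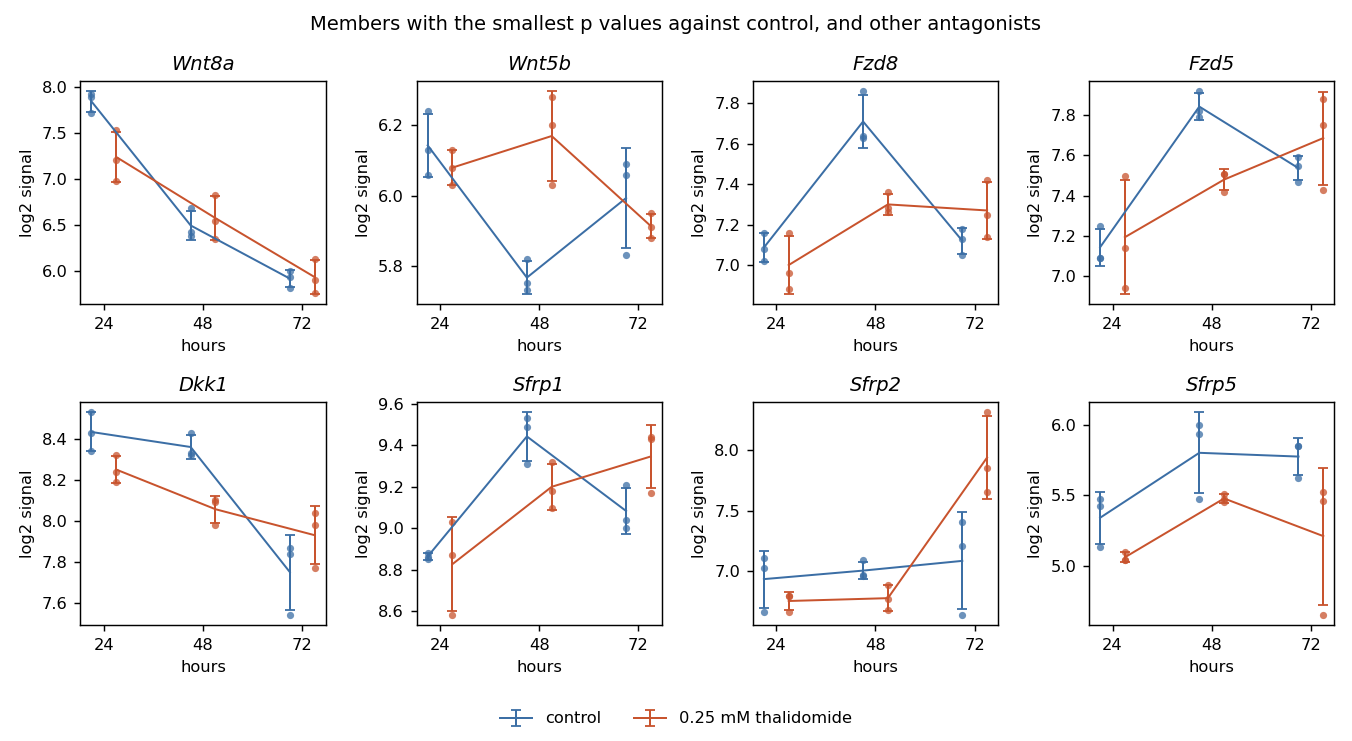
Log2 signal against hours for 8 members in control (blue) and 0.25 mM thalidomide (orange), with single arrays as points and group means with SD bars (n = 3). Wnt8a separates at 24 h, Wnt5b and Fzd8 at 48 h, and Sfrp2 at 72 h, where the exposed arrays spread from 7.65 to 8.31.

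At 72 h the largest difference of a member was that of Sfrp2, a secreted antagonist of Wnt ligands. Control arrays read 7.41, 7.21 and 6.64 and exposed arrays 7.85, 7.65 and 8.31. The groups did not overlap, and the difference of 0.85 ± 0.18 (95% interval 0.48 to 1.23) was not called (adjusted p = 0.110). With only genes at or above the median signal it was called (adjusted p = 0.0435), and it was 0.67 without exposed 72 h replicate 3 and 0.63 without control 72 h replicate 3. The second, dimmer probe set of Sfrp2 had group means of 5.12 and 5.30, so the mean of both probe sets gave 0.52.

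Sfrp5, a relative of Sfrp2, went the other way. It read 5.62, 5.85 and 5.85 in control and 5.46, 5.52 and 4.65 under thalidomide, a difference of -0.56 ± 0.18 that was not called (adjusted p = 0.315). The ligand Wnt2 read 6.12, 6.44 and 6.20 against 6.00, 5.95 and 5.15 (-0.55 ± 0.18, adjusted p = 0.326). Exposed replicate 3 was the lowest array for both genes, and without it each difference was -0.28.

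Fzd4 read 8.10, 8.29 and 8.62 in control and 8.10, 8.0 and 7.34 under thalidomide, with a difference of -0.53 ± 0.20 (adjusted p = 0.403). Exposed replicate 3 was again the lowest, and without it the difference was -0.29. In all, exposed arrays were above all controls for 5 members (Wnt6, Wnt7b, Wnt10a, Sfrp2 and Dkk2, against 7.27% of all genes) and below them for 3 (Wnt2, Wnt5a and Sfrp5, against 7.51%).

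Tissue markers differed at 72 h in directions of their own. The cardiac list mean was 6.58 to 7.46 under thalidomide and 7.94 to 7.99 in control, with 8 of 8 genes below 0 and 1 called. The endothelial list was 6.20 to 7.35 against 7.40 to 7.68 and the mesenchymal list 6.47 to 7.32 against 7.48 to 7.78, with 0 called by limma in each (4 of 6 and 5 of 8 at an unadjusted p under 0.05). The neural list was higher, 6.44 to 7.0 against 5.54 to 6.21, with all 6 genes above 0 and 0 called by limma (5 at an unadjusted p under 0.05). The part of these cell types in the values of Sfrp2, Wnt2 and Fzd4 was not tested.

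Other genes of the pathway were called against control about as often as all genes. At 24 h 2 of 63 rose and 2 fell (6.35%, against 6.86% of all genes). Sp5, a transcription factor that is a direct target of Wnt and beta-catenin, fell from 7.86 ± 0.08 to 7.13 ± 0.15 (-0.73 ± 0.10, 1.66-fold, adjusted p = 0.000944), and kept its call in all 13 alternatives. Gpc4, a cell-surface proteoglycan, fell by 0.40 (adjusted p = 0.0203), and the homeobox gene Cdx4 (0.47, adjusted p = 0.00759) and the destruction complex scaffold Axin1 (0.34, adjusted p = 0.0446) rose. Cdx4 was dim, at 4.51 ± 0.16 in control and 4.98 ± 0.11 under thalidomide, and was not tested with the signal filter. Its call held in 11 of 12 alternatives and was lost with the 24 h groups fitted alone (adjusted p = 0.084).

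At 48 h 1 of the 63 rose and 4 fell (7.94%, against 6.08%). Gpc4 was again lower (-0.48 ± 0.10, adjusted p = 0.00997), as was the transcription factor Tcf7l2 (-0.35 ± 0.06, adjusted p = 0.00526). Shisa2, which retains Frizzled proteins inside the cell, fell by 0.40 (adjusted p = 0.0198). The secreted antagonist Frzb, a relative of the Sfrp proteins, fell from 9.51 ± 0.07 to 9.13 ± 0.08 (-0.38 ± 0.10, adjusted p = 0.0296), and Axin1 was higher by 0.36 (adjusted p = 0.0386).

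Some of these calls were fragile. Frzb was called in 6 and Axin1 in 7 of 13 alternatives at 48 h, and Axin1 in 5 of 13 at 24 h, where it was lost when any 1 of the 6 arrays was left out. The Frzb call at 48 h was lost without any of the 3 controls or without exposed replicate 1 or 2 (-0.43 to -0.34 over all alternatives), and that of Axin1 without the same arrays (0.26 to 0.51). The Gpc4 call at 24 h was lost without control replicate 2 or 3 or exposed replicate 1 (-0.47 to -0.31), and the Shisa2 call at 48 h without control replicate 1 or 3 or exposed replicate 3 (-0.45 to -0.34).

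At 72 h limma called 0 of the 63, and 9 had an unadjusted p under 0.05, a larger share than the 9.12% of all genes. Frzb differed by 0.07 at 72 h and by -0.25 (adjusted p = 0.132) at 24 h. Axin2 was not called at any time: its differences were 0.06, 0.12 and 0.16 at 24, 48 and 72 h, with a 95% interval of -0.20 to 0.31 at 24 h.

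Within the exposed cultures the members changed over time much as in control. From 24 h to 72 h, 17 of 37 members (45.9%) were called, 8 up and 9 down, against 25.1% of all genes (14.4% up and 10.6% down). In this course 7 Wnt genes fell and 0 rose, and 6 Frizzled genes rose and 1 fell. Wnt3 changed by -2.23 ± 0.12, Wnt8a by -1.31 ± 0.14 and Wnt2b by -1.19 ± 0.12, and Fzd4 by 1.57 ± 0.20, Fzd2 by 1.46 ± 0.14 and Fzd3 by 1.20 ± 0.11. Dkk1 (-0.32), Wnt9a (-0.31), Wnt11 (-0.33) and Fzd10 (-0.44) fell less. Of the 17 calls 11 held in every alternative that tested them. Without exposed 72 h replicate 2 the calls of Dkk1 (-0.24 to -0.38 over all alternatives), Wnt9a (-0.22 to -0.36), Wnt11 (-0.23 to -0.43) and Fzd10 (-0.30 to -0.54) were lost. They also depended on exposed 24 h replicate 1 (Wnt9a and Fzd10), 2 (Wnt11) or 3 (Dkk1) and on exposed 72 h replicate 1 (Fzd10) or 3 (Wnt11). Fzd5 was lost when the exposed groups compared were fitted alone (0.49, adjusted p = 0.0670). So were Wnt9a (adjusted p = 0.0583), Wnt11 (adjusted p = 0.0996) and Fzd8 (adjusted p = 0.118). With cyclic loess, Fzd10 (adjusted p = 0.0521) and Fzd8 (adjusted p = 0.1205) were lost. Of the members called in either course, 14 were called in both in the same direction, 4 in control alone (Wnt1, Wnt2, Wnt10a and Fzd1) and 3 in exposed cultures alone (Sfrp1, Sfrp2 and Fzd8). Without exposed 72 h replicate 3, Wnt2 (0.44, adjusted p = 0.0337) and Sfrp5 (0.43, adjusted p = 0.0302) were called in the exposed course too. The changes of the 37 genes in the 2 courses, which share no array, had a Pearson correlation of 0.94 and a Spearman correlation of 0.87 across genes, given as a description since genes are not independent replicates.

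**Figure D5:**
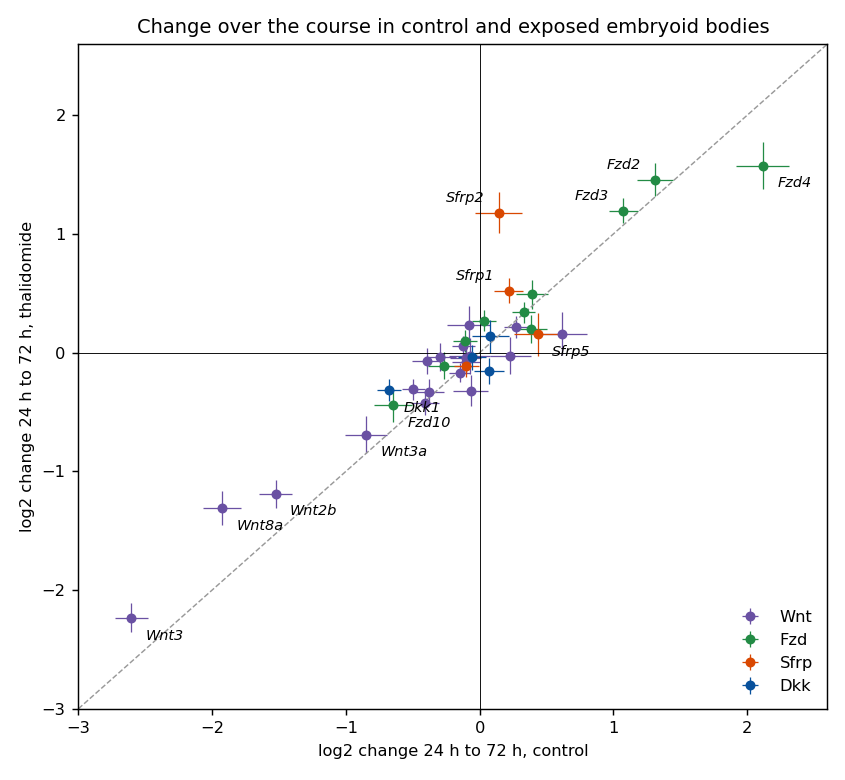
Log2 change from 24 h to 72 h in control (x axis) and in thalidomide-exposed embryoid bodies (y axis) for the 37 members, coloured by family, with SE bars; the dashed line marks equal change. Most genes lie along the line, Wnt3, Wnt8a and Wnt2b lie above it at the lower left, and Sfrp2 lies farthest above it, at 0.14 in control and 1.18 in exposed cultures.

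Sfrp2 had the largest change of the 3 called in the exposed course alone. Exposed arrays read 6.80, 6.67 and 6.80 at 24 h, 6.89, 6.68 and 6.77 at 48 h, and 7.85, 7.65 and 8.31 at 72 h. All arrays of 72 h lay above the earlier ones, and the rise of 1.18 ± 0.18 was 2.27-fold (adjusted p = 0.000101); it held in all 13 alternatives, with values from 0.82 to 1.32. In control the same interval gave 0.14 ± 0.18 (adjusted p = 0.598). Sfrp1, which was called up by 48 h but not over the whole course in control, rose in exposed cultures by 0.52 ± 0.11 (adjusted p = 0.00174). Fzd8 rose by 0.27 ± 0.09 (adjusted p = 0.0363), a call kept in 7 of 13 alternatives (0.19 to 0.35 over all of them). It was lost without exposed 24 h replicate 1 (0.25) or 2 (0.21), or exposed 72 h replicate 1 (0.19) or 3 (0.28). Cyclic loess (0.2) and the compared groups alone (0.27) also lost it.

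Whether the effect of thalidomide itself differed between times was tested for every member, and limma called none. Between 72 h and 24 h, 0 members passed (0.496% of all genes did) and 4 had an unadjusted p under 0.05, against 14.3% of all genes. Between 72 h and 48 h, 0 passed (0.0947% of all genes did) and 9 had an unadjusted p under 0.05, against 14%. The largest difference was that of Sfrp2, at 1.04 ± 0.25 between 72 h and 24 h (95% interval 0.51 to 1.56, adjusted p = 0.0684) and 1.08 ± 0.25 between 72 h and 48 h (adjusted p = 0.0780). Fzd8 (0.56 ± 0.13, adjusted p = 0.0743) and Wnt5b (-0.49 ± 0.11, adjusted p = 0.0793) were close to it in p between 72 h and 48 h. With only genes at or above the median signal, Sfrp2 was called in both tests (adjusted p = 0.0221 and 0.0239), as were Fzd8 (0.0202), Wnt5b (0.0210) and Dkk1 (0.48, adjusted p = 0.0412) between 72 h and 48 h. A trended robust fit called Sfrp2 (0.0351 and 0.0389), Fzd8 (0.0224) and Dkk1 (0.0363) as well. For Wnt8a, the 24 h and 72 h effects differed by 0.62 ± 0.20 (adjusted p = 0.161). Calls in one course or at one time and not another are therefore not shown to differ between them.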

How the data were processed

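Total RNA of 18 embryoid body cultures was measured on Affymetrix arrays, 1 culture per array. The submitters' processing notes name RMA and Affymetrix Expression Console 1.3, and the deposited values are on a log2 scale. The sources used here give no genome build for the probe sets. RMA makes array distributions nearly alike, so changes are relative to the other genes of an array. The platform's gene table covered 25335 of 41345 probe sets, 23521 with 1 symbol; the 1814 with several symbols were left out. The probe set with the highest mean stood for the 1082 genes with several, which left 22180 genes. No detection values were used, and the number of arrays limits the precision.

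Models were fitted in limma 3.58.1 (R 4.3.3), with a mean for each of 6 groups (lmFit, eBayes, two-sided, 12 residual and 4.35 prior degrees of freedom), after the code was tested on simulated data. P-values are limma's, adjusted by Benjamini-Hochberg over 22180 genes within a contrast and called under 0.05. Alternatives were the mean of probe sets, cyclic loess, a filter at the median signal, array weights, a trended robust eBayes, the compared groups alone, replicate number as a block and each array left out.

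Members and lists were chosen with earlier results of these data known. Full values are given for members called in a thalidomide contrast, or over the control course with a log2 change of at least 1, and for the smallest p of a family without calls; further members are named after their values were seen. Pathway genes named against control were at most 3 called per sub-list, with Frzb and Axin2 always. The genes T, Gsk3a and Tcf7 were not analysed here. Deviations of same-numbered control and exposed arrays of the same time correlated at -0.14 to 0.118 across genes, beside -0.151 to 0.187 for other numbers. No pairing by replicate number showed in this check. It made no comparison across times and cannot exclude shared batches.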

Additional observations from a re-analysis of the deposited data

Results flagged for a closer look

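The effect of thalidomide on Sp5, a direct target gene of Wnt and beta-catenin, differed between times by the test of the difference itself. The effect at 72 h minus that at 24 h was 0.84 (limma adjusted p = 0.0228): exposed arrays were lower by 0.73 at 24 h (7.13 ± 0.15 against 7.86 ± 0.08) and differed by 0.11 at 72 h (6.08 ± 0.13 against 5.97 ± 0.15). In control the gene fell from 24 h to 72 h by 1.88. The call held in 14 of 19 alternatives and was lost when the compared groups were fitted alone (adjusted p = 0.0573) and without control 24 h replicate 1 (0.79) or 3 (0.85), control 72 h replicate 3 (0.75) or exposed 72 h replicate 1 (0.80). The primitive streak markers moved the same way in this contrast, with 7 of 7 above 0 (median 0.43) and 5 at an unadjusted p under 0.05, though limma called 0. Their part in the Sp5 value was not tested. Among the 37 members none had such a difference. In groups of 3 arrays no test for a single outlying array was made.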

How the results depend on the processing

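The counts of called members over the control course (18; 14 to 18 with an array left out, 17 to 18 otherwise), from 24 h to 48 h in control (13; 10 to 13 and 13 to 14) and over the exposed course (17; 13 to 17 and 13 to 17) moved little. Over all contrasts and alternatives, 4674 tests of single members, 78 calls were lost and 48 gained, and no called member changed direction. The count at 24 h (1) was 0 when the compared groups were fitted alone and 0 to 1 with an array left out. Over all genes, the compared groups alone gave 23 up and 98 down at 24 h, against 316 and 1205 in the main fit. The count at 48 h (2) was 6 with the filter at the median signal, 4 with a trended robust fit and 0 with the compared groups alone. With an array left out it was 1 to 3, and 1 without replicate 3 of either group. Calls over all genes at 48 h shifted too, from 410 up and 939 down of 22180 in the main fit. They were 380 and 1570 of 11090 with the filter, 544 and 1428 with the trended fit, and 37 and 126 with the groups alone. The count at 72 h (0), where all genes gave 0 up and 2 down, was 1 with the filter (10 up and 28 down) and 0 without any array. From 48 h to 72 h in control (7) it was 13 with the filter, 13 with array weights, 11 with the trended fit and 3 to 5 with an array left out. For the effect at 72 h minus 24 h (0) the filter and the trended fit gave 1 each, and for 72 h minus 48 h (0) the filter gave 4, array weights 1 and the trended fit 3; left-out arrays gave 0 in both. The filter tests 26 members of 11090 genes, and only these genes enter its fit and its adjustment. The cause of the shifts in count was not tested.

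With replicate number as a block, the count of called members was 1, 2 and 0 at 24, 48 and 72 h, as without it. Axin1 at 24 h lost its call (adjusted p = 0.0572). Dim members have only relative values, since no background level was used.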

Other observations

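Some of the 37 genes lie next to each other in the genome, and their changes are set side by side without a test of the difference. The RefSeq gene table of GRCm38.p6 holds 4 such pairs. On chromosome 11, Wnt3 fell by 2.61 over the control course while the adjacent Wnt9b differed by -0.08 (limma adjusted p = 0.755). Also on chromosome 11, Wnt3a (-0.85) and Wnt9a (-0.50) both fell, in control and in exposed cultures (-0.69 and -0.31). On chromosome 1, Wnt10a fell (-0.40), and Wnt6 had a change of -0.29 that was not called (adjusted p = 0.0756). On chromosome 15, Wnt1 rose (0.27) and Wnt10b differed by -0.07 (adjusted p = 0.756).

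The members varied a little more between replicates than genes at large, with a median pooled SD of 0.153 (0.091 to 0.275) against 0.128. Their group means also ranged more widely, by a median of 0.48 against 0.32, and by at least 1 for 7 members against 3.59% of all genes. The members that moved least were Dkk3, whose 6 group means lay within 0.09, and Wnt16, within 0.12. Wnt16 had a mean signal of 4.4, below the lower quartile of 4.54. With no background level used, its small range does not show steady expression.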
